A study of Mus musculus with 10 samples.

Results

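TBK1, IKKε and 7 proteins that hold, restrain or recruit these kinases were followed in the messenger RNA of peritoneal lavage cells from septic mice. The rule that picks them is a list of names and uses no measured value: the kinase genes Tbk1 and Ikbke, the scaffold genes Tank, Azi2 and Tbkbp1, the inhibitor gene Sike1, and Traf3, Optn and Mavs, whose products act just upstream. All 9 were found, each once, among the 34745 genes of the deposited table. The 10 libraries are labelled NC (5, numbered 1 to 5) and AX (5, numbered 6 to 10). Every mouse had undergone cecal ligation and puncture, in which the gut is punctured so that its bacteria spread through the abdominal cavity. The labels do not spell out these abbreviations; from the stated design AX was taken to mean amlexanox, and NC the vehicle. The sources used here do not give strain, sex, age, dose, route or time of sampling. Nor do they say whether the 10 libraries are 10 mice, so the spread behind the p-values may in part be technical.

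TBK1 and IKKε are closely related serine/threonine kinases that act apart from the classical IKK complex. Once toll-like receptors, cytosolic RNA sensors or the STING pathway are engaged, they phosphorylate the transcription factors IRF3 and IRF7, which switch on type I interferon genes. Each kinase dimer binds 1 of several coiled-coil scaffolds (TANK, NAP1 encoded by Azi2, SINTBAD encoded by Tbkbp1), which decide where in the cell it acts. SIKE1 binds the kinases and restrains them. TRAF3 is a ubiquitin ligase that links receptors to the kinases, MAVS is the mitochondrial adaptor of the RNA sensors, and optineurin brings TBK1 to ubiquitin chains and serves as an autophagy receptor. Tbk1 is generally described as constitutively expressed and Ikbke as inducible by inflammatory stimuli. Amlexanox inhibits the activity of both kinases. Kinase activity was not measured, so the values below are mRNA levels only.

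The promoters of 3 of these genes are shown because their mRNAs behaved differently across the libraries: Tbk1 was steady, Ikbke was far lower in 1 library than in the rest, and Traf3 stood high in 1 NC library. The sequences are RefSeq windows on GRCm38.p6 that run 5′ to 3′ towards the gene and end where the gene of the deposited table begins. Tbk1 is on the minus strand at chr10:121586795-121587044, Ikbke on the minus strand at chr1:131279607-131279813 and Traf3 on the plus strand at chr12:111166120-111166369. Capitals mark matches, on either strand, to a GC box (GGGCGG), the core of a cyclic AMP response element (TGACG), the core of a PU.1 site (GAGGAA) or a kappaB site.
Tbk1: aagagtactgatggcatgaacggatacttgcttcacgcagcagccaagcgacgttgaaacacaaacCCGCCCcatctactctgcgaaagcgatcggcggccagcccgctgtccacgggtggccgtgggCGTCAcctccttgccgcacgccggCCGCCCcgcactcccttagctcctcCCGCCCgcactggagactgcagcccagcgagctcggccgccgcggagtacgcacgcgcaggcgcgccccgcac
Ikbke: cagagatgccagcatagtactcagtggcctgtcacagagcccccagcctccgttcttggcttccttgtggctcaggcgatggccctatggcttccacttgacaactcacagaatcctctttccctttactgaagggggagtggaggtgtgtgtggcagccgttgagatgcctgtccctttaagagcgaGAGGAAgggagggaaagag
Traf3: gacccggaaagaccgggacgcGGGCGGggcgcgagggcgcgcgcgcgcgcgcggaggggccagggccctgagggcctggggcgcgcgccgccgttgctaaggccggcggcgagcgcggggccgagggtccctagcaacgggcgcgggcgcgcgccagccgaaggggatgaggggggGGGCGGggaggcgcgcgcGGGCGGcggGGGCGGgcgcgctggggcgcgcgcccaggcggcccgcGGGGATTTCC
The windows differed in CpG dinucleotides. In the 250 bases before the RefSeq start, Tbk1 had 31 CpG and Traf3 had 49, while Ikbke had 4. The median over 32851 such windows was 6. Tbk1 held 3 GC boxes and 1 cyclic AMP element core, Ikbke 1 PU.1 core, and Traf3 4 GC boxes and 1 kappaB match, which ended at the base before the start. Of all windows, 32.7% held a GC box, 17.8% a cyclic AMP element core, 23.3% a PU.1 core and 3.90% a kappaB match. The interferon response element core (a pair of GAAA runs with any 2 bases between them), found in 2.98% of all windows, and the AP-1 site TGANTCA, found in 6.75%, had no match in these 3 windows. A match describes letters and is not a measured binding site.

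NC 1 had the smallest total, 10221170 counts, and NC 2 the largest, 13806885. Levels are given as CPM, counts scaled to TMM-adjusted library sizes. The lavage was rich in neutrophil markers: 14 of them, among them S100a9 and Lcn2, summed to between 7752 and 15167 CPM across AX and between 8993 and 18388 CPM across NC. The 6 monocyte markers, led by Chil3 and F13a1, lay between 1352 and 2910 CPM for AX and between 1719 and 3183 CPM for NC. The 10 markers of large peritoneal macrophages lay between 113 and 541 CPM for AX and between 81.7 and 291 CPM for NC. B cell markers (6) reached 223 CPM, gut epithelial markers (6) 587 CPM, mast cell markers (5) 61.1 CPM, dendritic cell markers (6) 28.4 CPM and T cell markers (6) 16.2 CPM at most, and Siglech of the dendritic cell list was at 0 throughout. AX 6 and NC 1 stood apart by lining and blood cell RNA. Their 11 mesothelial markers, led by Msln and Krt8, summed to 2739 and 1119 CPM, against 121 to 387 CPM elsewhere. Their 7 stromal markers summed to 2883 and 1215 CPM, against 234 to 701 CPM elsewhere, and their 5 erythroid markers to 1822 and 843 CPM, against 88.1 to 584 CPM elsewhere. None of the markers tested passed the test between AX and NC. In bulk RNA, fewer cells of a type and less RNA per cell cannot be told apart.

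Per length, Ikbke was on average the most abundant of the 9 mRNAs, and Traf3 and Mavs were the least. Divided by the merged exon length of each gene in GENCODE M21, Ikbke averaged 82.98 ± 35.8 CPM per kilobase and Tbk1 27.9 ± 5.24 (SD, n = 10 libraries). Ikbke lay above Tbk1 in 9 of the 10 libraries, and Tbk1 above Optn in 10 of 10. Optn followed at 17.6 ± 4.38 CPM per kilobase and Azi2 at 13.2 ± 1.48, with Optn the higher in 8 libraries. Tank averaged 7.81 ± 1.21 CPM per kilobase, below Azi2 in all 10 libraries. The lower end of the order was not resolved. Tbkbp1 averaged 5.15 ± 3.47 CPM per kilobase and Sike1 4.35 ± 1.04, and each was the higher in 5 libraries; Traf3 averaged 2.70 ± 1.92 and Mavs 2.48 ± 0.892, again with 5 libraries each way. The lengths behind the authors' deposited FPKM give another order at this end, with Sike1 above Tbkbp1 and Mavs above Traf3. For 8 of the 9 genes those lengths equal the sum of all distinct exons, so that overlapping exons of different transcripts are counted repeatedly. Traf3 is thereby divided by 20180 bases, while its merged exons span 7350. The exception is Tbk1, which is divided by 3031 bases, while its merged exons span 3910.

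Tbk1, the kinase of most cell types, was steady. It read 123, 88.1, 152, 120.3 and 87.3 CPM in NC 1 to NC 5 and 94.1, 124, 96.2, 99.4 and 108 CPM in AX 6 to AX 10. Every AX value lay within the NC range, and 4 of 5 AX libraries were below the NC median. The log2 fold change of AX against NC was -0.13 ± 0.19 (SE), with a 95% interval from -0.54 to 0.28, which spans folds from 0.688 to 1.21 (edgeR quasi-likelihood test, adjusted p = 1.0). The highest library exceeded the lowest by 1.74-fold. Only 14.2% of the 10887 tested genes with a mean log2 CPM of at least 1 had a smaller SD over the 10 libraries. The gene (ENSMUSG00000020115) lies on chromosome 10 from 121546455 to 121586794 of mm10, on the minus strand.

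Ikbke, the inducible partner, was high in most libraries and far lower in 1. It read 377, 999, 857, 987 and 754 CPM in NC 1 to NC 5 and 48.4, 851, 585, 974 and 1049 CPM in AX 6 to AX 10. The groups overlapped almost completely apart from AX 6, and the medians were 851 CPM in AX and 857 CPM in NC. The highest library exceeded the lowest by 21.7-fold, and 95.4% of the 10887 genes had a smaller SD. AX 6 still held 558 counts of Ikbke, so that counting error alone allows 44.4 to 52.6 CPM (exact Poisson interval of 95%). The log2 fold change was -0.18 ± 0.59 (SE), with a 95% interval from -1.48 to 1.12; without AX 6 it was 0.12 (adjusted p = 1.0 in both fits). The gene (ENSMUSG00000042349) lies on chromosome 1 from 131254343 to 131279606 on the minus strand. The antisense genes Gm28914 and Gm28913 overlap it there, and both were listed at 0 counts in every library.

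**Figure D1:**
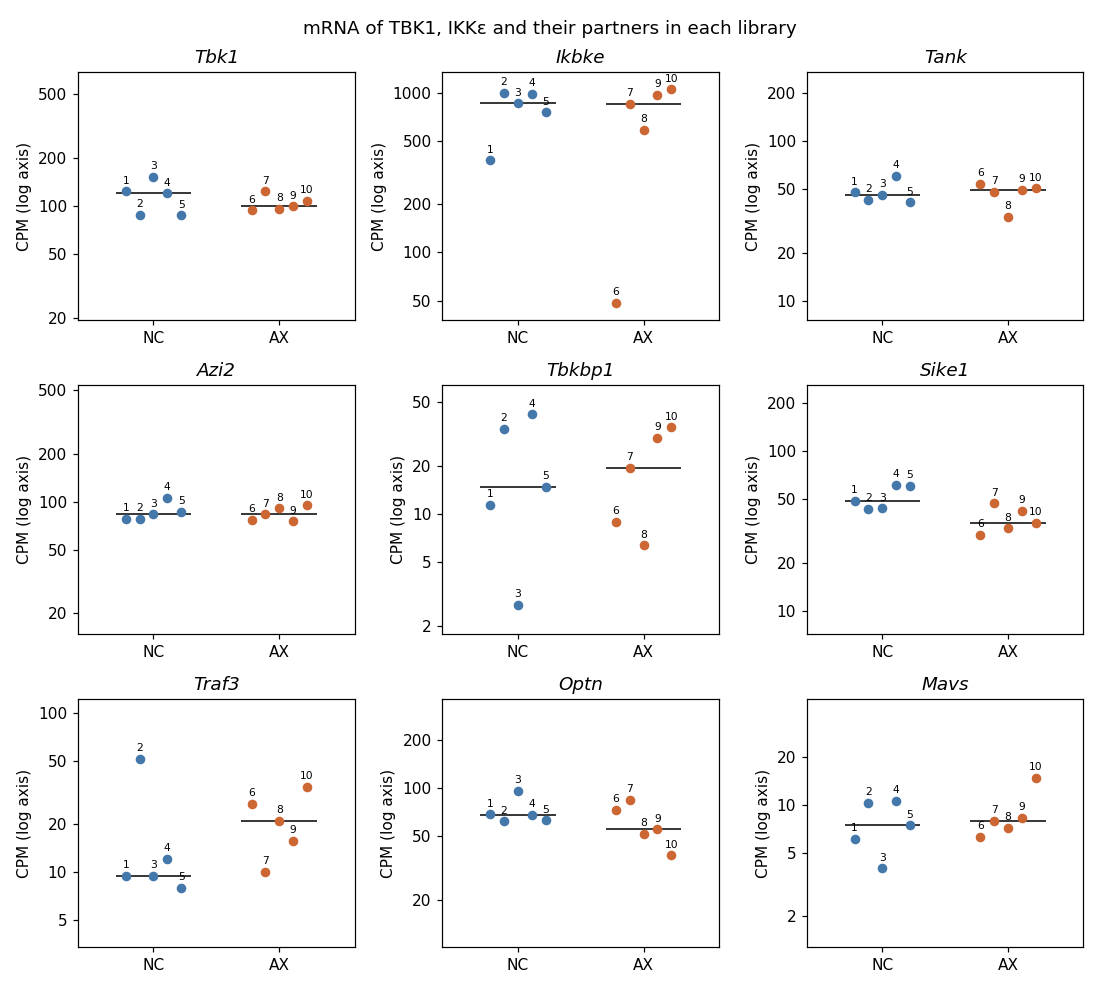
CPM of each gene (log axis, spanning the same number of folds in every panel) in the NC and AX libraries; points are libraries with their numbers and bars are group medians. Ikbke falls to 48.4 CPM in AX 6, and Tbkbp1 and Traf3 spread widely in both groups, while Tbk1, Tank and Azi2 stay within a narrow band.

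The low Ikbke of AX 6 was among the most extreme values of that library. In AX 6, 42 of 5847 genes (0.718%) fell short of the larger group median by 8-fold or more, counting genes whose median reached 20 CPM, and Ikbke, at 17.6-fold, was 1 of them. No other of the 9 genes met that mark in any library; Tbkbp1 and Mavs have medians too low to be judged. The share of genes beyond that mark was 0.342%, 0.445%, 0.735%, 0.496% and 0.906% in NC 1 to NC 5 and 0.325%, 1.11%, 0.428% and 0.889% in AX 7 to AX 10. Ikbke was lowest in AX 6, then NC 1, then AX 8, and these libraries also had the lowest summed monocyte markers (1352, 1719 and 1636 CPM). The monocyte list did not move as a whole: Ccr2 was lowest in the same libraries, at 11.9, 21.4 and 57.8 CPM, whereas Plac8 was highest in NC 1 and AX 6, at 280.2 and 192 CPM, and Chil3 was lowest in NC 4, at 236 CPM. The match was not particular to monocyte markers. The neutrophil marker Mmp9 was also lowest in AX 6, NC 1 and AX 8, at 70.9, 74.2 and 142 CPM. So was Cxcr2, at 53.5, 33.4 and 61.3 CPM. The summed neutrophil markers were instead lowest in AX 10, at 7752 CPM. Ccr2, Plac8, Mmp9, Cxcr2, Camp and Ltf were picked out after their values were seen. AX 6 and NC 1 also had the highest mesothelial, stromal and erythroid sums given above. Whether the cell mixture plays a part in the Ikbke values was not tested.

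The balance of the kinases varied accordingly. Per merged exon length, Ikbke exceeded Tbk1 by 1.33-fold in NC 1, 4.92-fold in NC 2, 2.45-fold in NC 3, 3.56-fold in NC 4 and 3.74-fold in NC 5. The ratios in AX 7 to AX 10 were 2.99, 2.64, 4.25 and 4.21, and in AX 6 the order was turned, at 0.223. The lengths behind the deposited FPKM lower every ratio by the same factor. On that scale it was 0.783 in NC 1 and 0.132 in AX 6, and Ikbke exceeded Tbk1 in 8 of 10 libraries. Those lengths are of unlike kinds for the 2 kinases. Ikbke is divided by its summed exons, 11842 bases, but Tbk1 by 3031 bases, while its summed exons span 5875. The groups were compared on the FPKM scale, where a constant factor leaves their difference as it is. The mean log2 FPKM ratio was 0.23 ± 1.79 in AX and 0.79 ± 0.73 in NC (SD, n = 5 each), a difference of -0.55. An exact two-sided permutation test over 252 arrangements gave p = 0.698, and cannot give less than 0.00794. Without AX 6 the difference was 0.24, with an exact p = 0.611.

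The scaffold genes did not vary alike. Tank, whose product tethers the kinases to TRAF proteins, read 47.8, 42.8, 46.1, 60.9 and 41.5 CPM in NC 1 to NC 5 and 54.2, 48.1, 33.7, 49.8 and 50.9 CPM in AX 6 to AX 10. Azi2, which encodes NAP1, read 77.98, 78.1, 83.3, 106 and 86.5 CPM in NC and 77.2, 83.3, 91.1, 75.2 and 94.7 CPM in AX. For both genes the groups overlapped throughout, and NC 4 was the highest library. The log2 fold changes were -0.02 ± 0.18 and -0.03 ± 0.15 (SE), with 95% intervals from -0.41 to 0.38 for Tank and from -0.36 to 0.29 for Azi2. Azi2 was among the steadiest genes of the table: 1.69% of the 10887 genes had a smaller SD. Tank lies at chr2:61578585-61654171 and Azi2 at chr9:118040499-118069794, both on the plus strand of mm10.

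Tbkbp1, which encodes the scaffold SINTBAD, spanned 15.6-fold instead. It read 11.4, 34.1, 2.70, 42.0 and 14.8 CPM in NC 1 to NC 5 and 8.93, 19.5, 6.37, 29.9 and 35.0 CPM in AX 6 to AX 10. Values spread widely in both groups, more so in NC (SD 16.4 CPM) than in AX (SD 12.6 CPM), and 93.8% of the 10887 genes had a smaller SD. Its lowest value, in NC 3, rests on 29 counts, which allow 1.81 to 3.87 CPM (exact Poisson interval of 95%), below every other library. The log2 fold change was -0.08 ± 0.66 (SE), with a 95% interval from -1.53 to 1.38, and its sign changed on leaving out NC 2, NC 4, AX 6 or AX 8 in turn (0.17, 0.32, 0.11 and 0.16). The lowest Tbkbp1 and the lowest Ikbke thus fell in different libraries. Tbkbp1 lies at chr11:97136171-97151495 on the minus strand.

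Sike1, which encodes the suppressor of these kinases, came closest to a difference between the groups. It read 49.2, 43.8, 44.0, 61.9 and 61.0 CPM in NC 1 to NC 5 and 30.1, 47.3, 32.9, 42.3 and 35.5 CPM in AX 6 to AX 10. All 5 AX values lay below the NC median of 49.2 CPM, and 4 of them below every NC library; AX 7 was the exception. The means were 37.6 ± 7.06 CPM in AX and 52.0 ± 8.92 CPM in NC (SD, n = 5 each), a log2 fold change of -0.47 ± 0.18 (SE) with a 95% interval from -0.87 to -0.06. Its unadjusted p was 0.028 and its adjusted p = 1.0 with edgeR, so the difference did not pass over all genes. It had the same direction in all 18 alternative fits, from -0.56 to -0.40. Their unadjusted p ranged from 0.0152 to 0.0671 and was under 0.05 in 12 of them. Of the 10 fits that left out a single library, 5 had an unadjusted p under 0.05. All these fits reuse the same libraries, so their shared direction adds no independent evidence. The gene (ENSMUSG00000027854) lies on chromosome 3 from 102995708 to 103008459 on the plus strand, and no annotated gene overlaps it.

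Among the genes that act upstream, Traf3 depended on which libraries were kept. It read 9.50, 51.6, 9.49, 12.2 and 8.002 CPM in NC 1 to NC 5 and 26.9, 10.1, 20.99, 15.7 and 34.2 CPM in AX 6 to AX 10. NC 2 was the highest of all 10 libraries, while the other NC libraries lay at or below 12.2 CPM and 4 of 5 AX libraries above that. With all libraries the log2 fold change was 0.25 ± 0.55 (SE), with a 95% interval from -0.97 to 1.46. Without NC 2 it was 1.14, with an unadjusted p of 0.0084 and an adjusted p = 1.0 (edgeR). Without AX 10 it was 0.01, without NC 1 or NC 3 it was 0.08 and without NC 5 it was 0.05. Without NC 4 it was 0.11, without AX 6 0.15 and without AX 7 0.42, and with both AX 6 and NC 1 left out it was -0.01.

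The groups overlapped for Optn and Mavs. Optn, for optineurin, read 68.3, 61.7, 95.9, 68.1 and 62.8 CPM in NC 1 to NC 5 and 73.3, 84.1, 51.7, 55.2 and 37.8 CPM in AX 6 to AX 10, with 3 of 5 AX libraries below every NC library. Its log2 fold change was -0.24 ± 0.23 (SE), with a 95% interval from -0.75 to 0.27. Mavs, the mitochondrial adaptor, was low, at 6.13, 10.3, 4.0005, 10.6 and 7.46 CPM in NC and 6.33, 7.92, 7.20, 8.27 and 14.8 CPM in AX. AX 10 was its highest library and NC 3 its lowest. Its log2 fold change of 0.21 ± 0.33 (SE) had a 95% interval from -0.52 to 0.93, and turned to -0.05 without AX 10. Mavs and Tbkbp1 shared their lowest library, NC 3. Optn lies at chr2:5020642-5064051 on the minus strand, and Traf3 and Mavs at chr12:111166370-111267153 and chr2:131234063-131248025 on the plus strand.

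**Figure D2:**
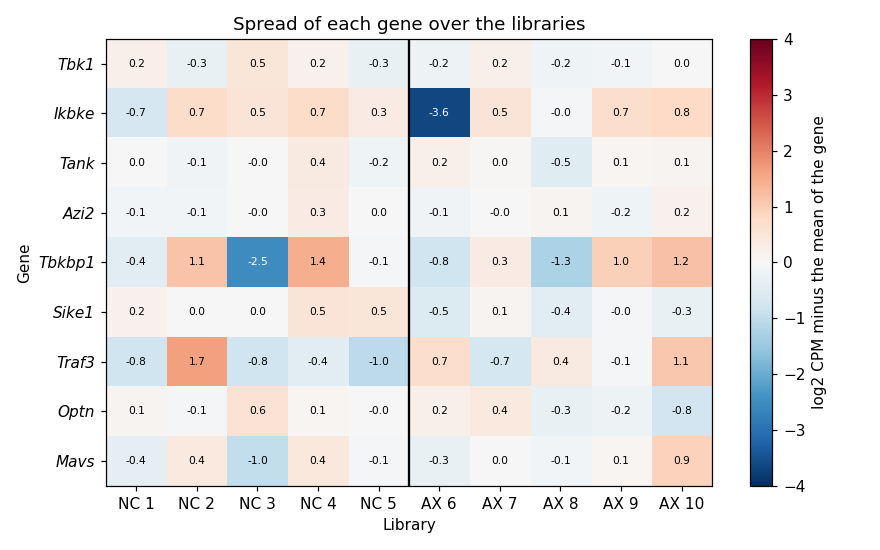
Each cell gives the log2 CPM of a gene in a library minus the mean of that gene over the 10 libraries; NC is left of the line and AX right. The darkest cells are Ikbke in AX 6 and Tbkbp1 in NC 3, and the rows of Tbk1, Tank and Azi2 are nearly white.

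Between AX and NC, 0 of the 9 genes passed an adjusted p of 0.05 with edgeR, and neither did any of the 12264 genes tested (0.0%). The whole-table count was also 0 with DESeq2 and with limma-voom. At an unadjusted p under 0.05 there was 1 of the 9, Sike1, against 113 genes or 0.921% of those tested, of which 63 (0.514%) had lower and 50 (0.408%) higher fitted values in AX. With no difference anywhere and accurate p-values, a fraction near 0.05 would be at that mark, so 0.921% was less than chance gives. Whether 1 of 9 departs from that share was not tested. DESeq2 and limma-voom had 193 and 132 genes at that mark. The groups overlapped for all 9, where 0.139% of the genes tested had no overlap. Among all genes tested, 53.6% of the log2 fold changes were above 0 and their median was 0.02. Of the 9 log2 fold changes 7 were below 0 and 2 above, with a median of -0.08. Without AX 6 the split was 5 to 4 and the median -0.0050, against -0.02 over all genes. With AX 6 and NC 1 both left out it was 8 to 1 and the median -0.056, against 0.0048 over all genes. In that fit, apart from Sike1 (-0.41) and Optn (-0.33), the values below 0 lay between -0.068 and -0.0090. The intervals set what could be seen: they allow at most a fold of 1.21 upwards and 0.688 downwards for Tbk1, but from 0.358 to 2.18 for Ikbke and from 0.346 to 2.61 for Tbkbp1.

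**Figure D3:**
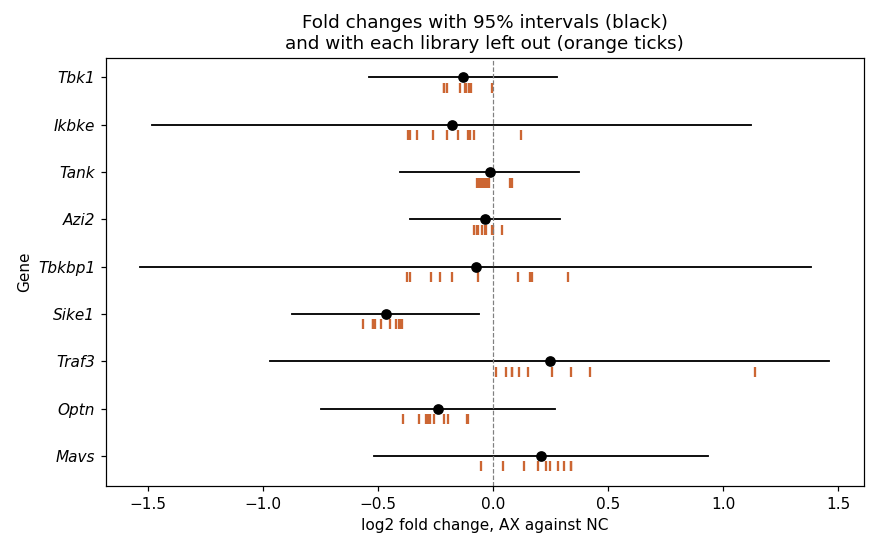
Log2 fold changes of AX against NC (points) with 95% intervals from edgeR (lines), and the same value with each library left out in turn (orange ticks). The interval of Sike1, from -0.87 to -0.06, is the only one that leaves out 0, and the tick of Traf3 at 1.14 is the fit without NC 2.

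The genes nearest to each kinase in pattern were sought by the root mean square gap between log2 CPM profiles, each centred on its mean over the 10 libraries, among 10360 genes. For Ikbke these were Adamts10 (0.31), Fam78a (0.36), Stab1 (0.38), Ppcdc (0.40) and Arap3 (0.42), against a median gap of 1.35 over all genes compared. All of them were lowest in AX 6 and second lowest in NC 1, as Ikbke was. They were chosen for likeness to Ikbke, so this is no separate result. Fam78a and Adamts10 were low in AX 6, at 0.520 and 1.04 CPM, and their counting error was not worked out. Stab1, a scavenger receptor of macrophages, measured 7.72 CPM for AX 6 and 26.3 CPM for NC 1, while the other libraries held 65.5 to 128 CPM. Adamts10, a secreted metalloprotease, measured 1.04 CPM for AX 6 and 4.49 CPM for NC 1, while the other libraries held 6.996 to 17.4 CPM. For Tbk1 the nearest genes were Mtmr12 (0.13), Capn7 (0.13), Rai14 (0.15), Pde8a (0.16) and Wipf2 (0.16), against a median of 0.50. Pde8a, a cyclic AMP phosphodiesterase, was lowest in AX 8, at 31.7 CPM, and highest in NC 3, at 58.98 CPM. These gaps describe likeness over 10 libraries only, and all genes of a library share its depth and its cell mixture.

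**Figure D4:**
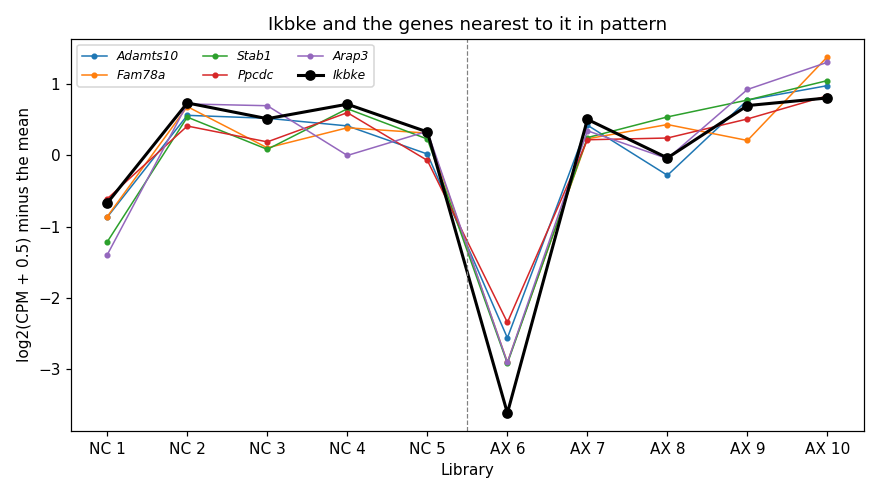
Log2(CPM + 0.5) minus the mean of each gene over the 10 libraries, for Ikbke (black) and the 5 genes nearest to it; lines join values of the same gene and imply no order of the libraries. All dip in AX 6 and, less deeply, in NC 1, having been chosen for likeness to Ikbke.

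The remaining genes of the pathway were read from 5 fixed lists, and none of their tested members passed an adjusted p of 0.05 with edgeR. For comparison with the splits of every list, 53.6% of all genes tested had a fitted value above 0 with TMM scaling. The median log2 fold change of all genes tested was 0.02 with TMM scaling and -0.04 with library totals. It was -0.02 without AX 6 and 0.02 without NC 1. Of 10 sensors and adaptors upstream of TBK1, the fitted value was above 0 for 5 and below 0 for 5, and the median log2 fold change was 0.02. Library totals gave 4 above and 6 below (median -0.05), and leaving out NC 1 gave 3 and 7 (median -0.07). Tlr3, the endosomal receptor for double-stranded RNA, averaged 2.57 ± 1.66 CPM in AX against 1.204 ± 0.683 CPM in NC (SD, n = 5 each, as for the pathway genes that follow). Tlr4, the receptor for lipopolysaccharide, averaged 60.7 ± 8.80 against 72.8 ± 13.6 CPM. Ddx58, which encodes the RNA sensor RIG-I, averaged 71.96 ± 50.99 against 37.5 ± 30.3 CPM; AX 8 held 143 CPM and AX 10 held 101 CPM. Of 16 ubiquitin-related and phosphatase regulators of the kinases, 11 were higher and 5 lower (median 0.02). With library totals in place of TMM scaling 6 were higher and 10 lower (median -0.03). Without AX 6 it was 8 and 8 (median 0.01), and without NC 1 9 and 7 (median 0.05). Dtx4, a ubiquitin ligase that marks TBK1 for degradation, stood at 67.1 ± 22.3 against 103 ± 42.6 CPM. Mib1, a ubiquitin ligase acting on TBK1, had a log2 fold change of -0.35 ± 0.26 (SE), and the deubiquitinase gene Cyld 0.25 ± 0.21 (SE).

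The classical IKK complex and its activating kinase TAK1 gave fitted values above 0 for all 7 genes with TMM scaling (median 0.11), but for 5 of 7 with library totals. It was 6 of 7 without AX 6, with a median of 0.27, and 6 of 7 without NC 1, with a median of 0.04. Ikbkg, which encodes the regulatory subunit NEMO, was lowest in AX 8, at 2.30 CPM, and highest in AX 10, at 64.2 CPM. Ikbkb, the gene of IKKβ, averaged 116 ± 45.3 against 98.8 ± 45.8 CPM. Map3k7, the gene of TAK1, averaged 60.6 ± 22.3 against 53.4 ± 17.4 CPM. Of 7 genes for substrates of TBK1 or IKKε, 5 were higher and 2 lower (median 0.19). It was 4 and 3 with library totals (median 0.16) and 4 and 3 without AX 6 (median 0.33). Without NC 1 it was 6 and 1 (median 0.20). Map3k14, the gene of the NF-κB-inducing kinase NIK, stood at 19.8 ± 3.48 against 13.8 ± 3.18 CPM, with an unadjusted p of 0.035 and an adjusted p = 1.0 (edgeR). Irf3, the transcription factor that TBK1 activates, stood at 26.5 ± 5.04 against 33.7 ± 7.24 CPM, a log2 fold change of -0.35 ± 0.21 (SE). Ripk1, the gene of a kinase of TNF receptor signalling, reached 46.7 CPM in AX 9, and its log2 fold change was 0.72 ± 0.58 (SE).

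The interferon genes themselves were close to absent. Ifnb1 had 0 to 13 counts per library, 10 in all AX libraries together and 20 in all NC libraries, and 4 libraries had none. Ifna1, Ifna2 and Ifna4 had at most 4 counts in any library, and each was at 0 in 9 of the 10; these 4 genes were too low to test. Of the 8 tested early targets of IRF3 and IRF7, 6 were higher and 2 lower in AX (median 0.26). It was 5 and 3 without AX 6 (median 0.03) and 5 and 3 with library totals (median 0.14). All 8 were higher without NC 1 (median 0.48). All 8 were also higher with AX 6 and NC 1 both left out (median 0.46, against 0.0048 over all genes). Of the antiviral effectors, Ifit3 averaged 27.6 ± 25.96 against 17.2 ± 11.3 CPM and Rsad2 185 ± 146 against 143 ± 45.2 CPM. The chemokine gene Ccl5 averaged 97.8 ± 42.8 against 84.3 ± 19.8 CPM. AX 8 held the highest Ifit3 and Rsad2, at 71.6 and 437 CPM, and the highest sum of the list, 1264 CPM against 311 to 793 CPM in the other libraries.

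**Figure D5:**
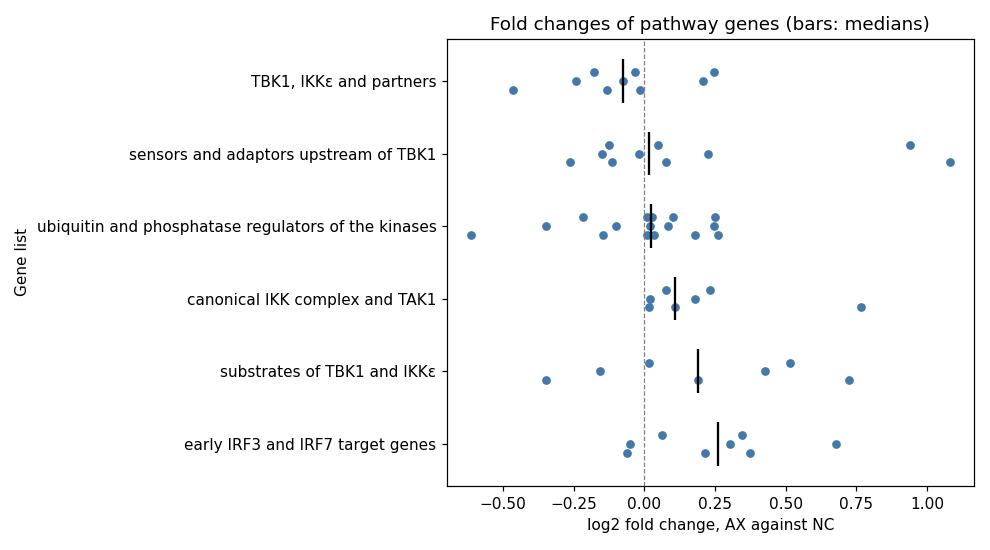
Log2 fold changes of AX against NC for each tested gene (points) of TBK1, IKKε and partners and of the 5 pathway lists, with medians as bars. Medians lie between -0.08 and 0.26, and in each list except the classical IKK complex points fall on both sides of 0.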

How the data were processed

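Poly(A) RNA of 10 libraries was sequenced by the authors; the submitters' processing notes name HISAT2 2.0.4 and mm10. No source used here gives the counting tool, the annotation or the strand setting. The raw count and the FPKM of each gene and library were deposited by the authors in 1 table. The FPKM values of the authors divide by library totals and by a gene length. That length equals the sum of distinct GENCODE M21 exons within 0.1% for 66.5% of 9693 genes with at least 100 counts. Per-length levels here therefore use merged exons, except in the test of the Ikbke to Tbk1 ratio, which uses the deposited FPKM.

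Counts were tested in R 4.3.3 with edgeR 4.0.16 (filterByExpr, TMM, quasi-likelihood F test, no covariates, Benjamini-Hochberg over 12264 genes, threshold 0.05). DESeq2 1.42.0, limma 3.58.1, other scalings and filters, log2(FPKM + 1), and leaving out libraries were alternatives. Every pair of libraries differed by more than counting noise (the smallest chi-square over its degrees of freedom was 38.6), so none was merged. Tested on simulated counts for AX against NC (12137 genes), the fit called 8 of 100 genes altered by 2-fold, 75 of 100 altered by 4-fold, and 1 unaltered gene. The simulation gave every gene the same dispersion. The list of 9 names uses no measured value, but it, the other lists and the alternatives were drawn up with earlier results of these data known. Named were all 9 genes, up to 3 tested genes of each pathway list with the smallest p, up to 2 markers of a cell type by level, and the 5 genes nearest to each kinase, without predicted genes, Rik clones or receptor segments, using a prior count of 2 in log2 CPM. The monocyte markers Ccr2 and Plac8 and the neutrophil markers Mmp9, Cxcr2, Camp and Ltf were named besides, after their values were seen. Poisson intervals cover counting error only. Promoters are from RefSeq (8 of 9 genes matched; all windows on GRCm38.p6). Python 3.11.15 and matplotlib 3.10.9 were used for the permutation test, the motif counts and the plots.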

Additional observations from a re-analysis of the deposited data

Results flagged for a closer look

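Single libraries stood far from the rest of their group for 5 of the 9 genes, judged by whether the gap to the nearest library exceeded 0.71 of the range of the group. With 18 groups of 5 libraries examined on each scale, chance gives such a gap in about 1 of 20 groups if values are normally distributed. CPM need not be so distributed, and the share among all genes tested was not worked out. The count of 5 genes is therefore not a trait particular to these 9. On the log2 scale the lowest AX library for Ikbke was AX 6 at 48.4 CPM, and the lowest NC library for Ikbke was NC 1 at 377 CPM. The lowest AX library for Tank on the log2 scale was AX 8 at 33.7 CPM. The highest NC library was NC 2 at 51.6 CPM for Traf3 and NC 3 at 95.9 CPM for Optn, on both scales. Mavs was highest among AX in AX 10, at 14.8 CPM, on the CPM scale alone.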

How the results depend on the processing

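None of the 9 genes passed the adjusted threshold in any alternative. Tbk1, Sike1 and Optn kept their direction in all 18 alternatives each, which reuse the same libraries. Leaving out each library in turn gave log2 fold changes from -0.37 to 0.12 for Ikbke, from -0.069 to 0.083 for Tank, from -0.081 to 0.039 for Azi2, from -0.38 to 0.32 for Tbkbp1, from 0.01 to 1.14 for Traf3 and from -0.053 to 0.34 for Mavs. The sign turned for Ikbke without AX 6, for Tank without NC 4 or AX 8, for Azi2 without NC 4 or AX 9, and for Mavs without AX 10. Leaving out a library also gave a difference of the log2 ratio of Ikbke to Tbk1 from -0.84 to 0.24, positive only without AX 6, and from 0 to 1 genes called in the whole table. The 1 gene was Rnf24, called without NC 3. Tank turned to 0.0022 with no filter on low counts, Tbkbp1 to 0.16 with limma-voom, and Traf3 to -0.0090 with both AX 6 and NC 1 left out; the cause was not tested. Traf3 was too low to enter the test on log2(FPKM + 1). With limma-voom the log2 fold change of Ikbke was -0.66, against -0.18 with edgeR. No paired analysis was possible because AX and NC share no replicate numbers. Counting error was largest for Tbkbp1 and Mavs, whose lowest libraries held 29 and 43 counts. On simulated counts, drawn with the same dispersion for every gene, 8 of 100 changes of 2-fold were called. That rate does not carry over to genes as steady as Tbk1 or as variable as Ikbke.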
